A study of Mus musculus with 10 samples.

Results

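Expression of 9 genes of proximal T cell receptor (TCR) signaling was followed in 10 RNA-seq libraries of mouse cells as they entered the T lineage *ex vivo*. The genes form a list set by name, with earlier results of these data known: the kinases *Lck*, *Fyn*, *Zap70*, *Txk* and *Prkcq*, and *Lat*, *Lcp2*, *Themis* and *Sh2d2a*, which code for adaptors and related proteins. They are 9 of the 24062 genes in the count files, and all 9 were among the 12221 genes tested. A gene was tested when at least 2 libraries held 1 count or more of it per 1 M gene reads (CPM). *Zap70*, *Themis* and *Sh2d2a* passed only through their DN2 libraries, since no control and at most 1 DN1 library reached that level, so their passing the filter already required a difference. The same holds for *Cd247*, *Skap1* and *Blk* among the other genes described below. *Blnk* passed only through the control libraries, since no DN library reached that level, so its passing required a difference too. CPM values below are scaled by TMM.

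When a TCR is engaged, LCK and FYN, kinases of the Src family, phosphorylate the tails of the CD3 and zeta chains. ZAP70, a kinase of the Syk family, docks there and phosphorylates the membrane adaptor LAT and the cytosolic adaptor SLP-76, the product of *Lcp2*. The pair forms a platform for phospholipase C gamma 1 and for Tec family kinases, of which TXK is one, and calcium, RAS and protein kinase C theta (*Prkcq*) signaling follow. THEMIS tunes the signal in thymocytes, and SH2D2A, also called TSAd, is an SH2 domain adaptor that binds LCK. Cells at the stages studied here have no complete receptor yet.

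LSK cells (Lin-SCA1+KIT+ progenitors of C57BL/6J marrow) were grown with SCF, FLT-3 ligand, IL-6 and IL-11. DN1 cells (KIT++CD44+CD25-, 2 libraries) were sorted from cultures on a high density of the immobilized Notch ligand Delta1 (5 µg/mL) without IL-7. DN2a (KIT++CD44+CD25+) and DN2b (KIT+CD44lo CD25+) cells, 2 libraries each, were sorted from Delta1 cultures (5 µg/mL). These cultures also received IL-7 (100 ng/mL), which was added at day 14. The 4 no Notch control libraries, labeled WT, came from LSK cells on human IgG1 (5 µg/mL) at day 14, and the addition of IL-7 is described only for Delta1 cultures. Stage and IL-7 changed together, so a difference between DN1 and DN2 cells cannot be told apart from one made by IL-7. The DN libraries are numbered below by the year in their labels, replicate 1 the earlier and replicate 2 the later year, and values of a stage are given in that order. The controls are named by their labels (D1, D2, R1 and R2), whose letters the labels do not explain.

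Depth was 12354635 to 35367925 reads on genes per library. A gene at 3 counts or fewer, which was 0.0880 to 0.239 CPM depending on the library, was taken to be at the detection floor. *Il2ra*, which codes for CD25, stood at 23.2 and 18.9 CPM in DN1 and at 1170 to 2175 CPM in the DN2 libraries, the order that the sorting gates set. The 3 Notch response genes *Hes1*, *Nrarp* and *Dtx1* summed to between 167 and 277 CPM in the DN libraries and to between 0.336 and 4.56 CPM in the controls. The 6 neutrophil and monocyte markers summed to between 23659 and 61001 CPM in the controls, 2015 (replicate 1) and 102 (replicate 2) CPM in DN1, and 2.94 to 8.98 CPM in DN2. The 6 mature T cell markers summed to between 28.1 and 70.5 CPM in the controls, mostly *Cd28*, and to between 4.97 and 5.98 CPM in DN1, 17.0 and 22.8 CPM in DN2a and 29.9 and 44.3 CPM in DN2b, while *Cd4* and *Cd8a* were at 0.952 CPM or less in every library and *Cd8b1* at 0.0997 CPM or less. The 8 NK and innate lymphoid markers summed to between 0.704 and 6.13 CPM in the controls, 1942 (replicate 1) and 236 (replicate 2) CPM in DN1, 349 and 447 CPM in DN2a and 94.2 and 120 CPM in DN2b. Nearly all of this sum in the DN libraries was *Gzmb*, which codes for granzyme B (1938 and 230 CPM in DN1), while *Klrd1* and *Klrb1c* reached 5.94 and 5.05 CPM and *Ncr1*, *Eomes* and *Prf1* were at 1.11 CPM or less. The part of these cells in the levels below was not tested. In bulk libraries, fewer cells of a type and less RNA per cell cannot be told apart.

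The promoters of these genes differ in their content of CpG, the dinucleotide on which the series' question about Notch dose turns. Of the 9 genes, 8 had entries in the RefSeq promoter table (GRCm38.p6), with 13 start sites in all, and *Sh2d2a* had none. The ratio of observed to expected CpG was taken over the 250 bases before each start. The study took it over longer promoter sequences, so its values are not on a like scale. The ratio was 0.916 for *Prkcq* and 0.794 for *Fyn*, both above the upper quartile of 0.723 over all 32851 windows. The *Prkcq* window lay wholly within an annotated exon of that gene. The other 6 genes lay at or below 0.338 at each of their starts, under the median of 0.374. *Lcp2* had 0 CpG in the 250 bases and *Themis* 1. The 6 windows shown are CpG-poor starts of *Lck*, *Zap70*, *Themis* and *Txk*, whose DN2b levels exceeded the control, and of *Lcp2*, which did not pass there. Each runs 5' to 3' to the base before the start site, and capitals mark matches to the motifs listed after them.
*Lck* distal start (chr4:129573642-129573891, minus strand): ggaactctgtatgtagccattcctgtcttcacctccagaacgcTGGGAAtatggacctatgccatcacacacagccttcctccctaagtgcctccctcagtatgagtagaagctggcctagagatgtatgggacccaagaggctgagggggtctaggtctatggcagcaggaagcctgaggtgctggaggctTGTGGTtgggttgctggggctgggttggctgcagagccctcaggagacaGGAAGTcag
*Lck* proximal start (chr4:129558373-129558622, minus strand): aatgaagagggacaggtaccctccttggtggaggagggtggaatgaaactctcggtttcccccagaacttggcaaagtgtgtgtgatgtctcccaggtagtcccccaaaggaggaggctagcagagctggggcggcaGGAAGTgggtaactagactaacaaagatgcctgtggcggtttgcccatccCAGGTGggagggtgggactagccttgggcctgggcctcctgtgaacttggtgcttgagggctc
*Zap70* first start (chr1:36761548-36761797, plus strand): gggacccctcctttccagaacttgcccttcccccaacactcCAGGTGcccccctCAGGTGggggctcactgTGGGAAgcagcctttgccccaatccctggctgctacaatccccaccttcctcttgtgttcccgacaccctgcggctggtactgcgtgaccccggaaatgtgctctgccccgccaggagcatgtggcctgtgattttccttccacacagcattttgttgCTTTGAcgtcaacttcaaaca
*Themis* first start (chr10:28668110-28668359, plus strand): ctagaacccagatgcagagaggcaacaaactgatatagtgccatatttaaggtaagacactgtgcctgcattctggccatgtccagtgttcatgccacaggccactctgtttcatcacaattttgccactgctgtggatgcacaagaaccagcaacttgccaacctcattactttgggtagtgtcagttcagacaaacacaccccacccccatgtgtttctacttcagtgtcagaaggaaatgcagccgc
*Txk* first start (chr5:72752778-72753027, minus strand): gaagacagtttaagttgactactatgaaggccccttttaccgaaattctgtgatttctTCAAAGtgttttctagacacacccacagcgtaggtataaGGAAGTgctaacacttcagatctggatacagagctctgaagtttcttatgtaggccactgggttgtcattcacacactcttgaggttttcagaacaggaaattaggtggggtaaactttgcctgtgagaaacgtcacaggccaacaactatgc
*Lcp2* (chr11:34046678-34046927, plus strand): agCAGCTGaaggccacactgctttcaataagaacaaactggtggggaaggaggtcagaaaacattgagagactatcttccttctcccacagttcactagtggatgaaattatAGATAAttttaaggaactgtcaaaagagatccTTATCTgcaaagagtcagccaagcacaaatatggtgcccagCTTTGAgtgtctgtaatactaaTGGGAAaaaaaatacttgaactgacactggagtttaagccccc
The motifs, searched on both strands, were TGTGGT for RUNX factors (present in 14% of all such windows), CTTTGA for TCF1 and LEF1 (13.8%), GGAAGT for ETS factors (19.7%), TGGGAA for RBPJ (21.6%), AGATAA for GATA factors (9.99%) and the E-boxes CAGCTG (13.0%) and CAGGTG (17.2%). A match in 1 window is therefore common. The distal *Lck* window held 1 RUNX, 1 ETS and 1 RBPJ match, and the proximal window 1 ETS and 1 E-box match. The *Lcp2* window held 2 GATA matches and 1 each for TCF1 and LEF1, RBPJ and an E-box. The *Themis* window held none of the 7 strings. A match is a string of letters and not a measured binding site. The genes themselves lie in mm10 at chr4:129548344-129573641 (*Lck*), chr10:39368855-39565381 (*Fyn*), chr1:36761798-36782818 (*Zap70*), chr7:126363824-126369570 (*Lat*), chr11:34046920-34092295 (*Lcp2*), chr10:28668360-28883818 (*Themis*), chr2:11172108-11301222 (*Prkcq*), chr5:72695978-72752777 (*Txk*) and chr3:87846755-87855722 (*Sh2d2a*), by GENCODE vM21. Antisense genes overlap exons of *Lcp2* and *Themis*, and the strand setting of the counting is not given in the sources used here, so reads of those pairs could be mixed.

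The Src family kinase *Lck* reached the highest level of the 9 genes. It was at 33.2 and 76.2 CPM in DN1, 427 and 304 CPM in DN2a, and 605 and 294 CPM in DN2b. The controls D1, D2, R1 and R2 held 0.616, 2.35, 0.616 and 1.37 CPM. Every DN library lay above every control, and every DN2 library above both DN1 libraries, while DN2a and DN2b overlapped. *Fyn* was flatter, at 68.2 and 66.3 CPM in DN1, 41.0 and 50.5 CPM in DN2a, and 51.8 and 67.6 CPM in DN2b, against 17.0, 11.8, 18.0 and 15.4 CPM in the controls. It was thus high from DN1 on, with DN2a below DN1 and DN2b overlapping DN1.

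*Zap70* was scarce throughout. It stood at 0.815 and 0.947 CPM in DN1, 0.966 and 2.52 CPM in DN2a, and 3.07 and 3.90 CPM in DN2b, and all 4 controls were at the floor, with 0, 0, 3 and 1 counts. Its substrates were not scarce. *Lat* was at 62.0 and 16.7 CPM in DN1, 50.7 and 86.3 CPM in DN2a, and 107 and 98.8 CPM in DN2b, against 2.91, 2.31, 0.968 and 1.40 CPM in the controls. The DN1 libraries differed most from each other here, and replicate 1, the higher one, lay inside the DN2a range. The 5 mast cell and basophil markers summed to 1566 CPM in that replicate 1 and to 459 CPM in replicate 2. They summed to 381 and 581 CPM in DN2a, 260.0 and 461 CPM in DN2b and 34.0 to 175 CPM in the controls. Nearly all of the DN2 sums was *Cpa3*. The part of such cells in the *Lat* level was not tested. *Lcp2* was at 196 and 181 CPM in DN1, 152 and 225 CPM in DN2a, 148 and 227 CPM in DN2b, and 128, 180, 140 and 116 CPM in the controls. The control range ran up to the DN1 range and overlapped both DN2 ranges.

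*Prkcq*, the protein kinase C of the T cell synapse, was at 37.9 and 30.5 CPM in DN1, 44.4 and 39.9 CPM in DN2a, and 56.6 and 44.8 CPM in DN2b, against 0.728, 1.61, 0.205 and 0.610 CPM in the controls. Its DN1 levels already lay close to those of DN2. *Txk* was higher at each stage, with 3.08 and 1.25 CPM in DN1, 17.7 and 19.7 CPM in DN2a and 42.6 and 97.3 CPM in DN2b. The controls held 0.0560, 0.369, 0.0880 and 0.0305 CPM of it, which is 1, 8, 3 and 1 counts.

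*Themis* was above the floor in the DN2 libraries and in no other. It had 0 counts in DN1 replicate 1 and 0.0498 CPM in replicate 2, was at the floor in all 4 controls, and reached 3.76 and 4.60 CPM in DN2a and 7.34 and 18.0 CPM in DN2b. *Sh2d2a* was at 0.741 and 0.548 CPM in DN1, inside the control range of 0.335 to 0.880 CPM. It was at 4.04 and 2.89 CPM in DN2a and 8.60 and 9.55 CPM in DN2b, above every DN1 and control library. Of the 9 genes, *Zap70*, *Prkcq* and *Txk*, 3 in all, were higher without overlap at every step from control through DN1 and DN2a to DN2b, a pattern shown by 1.03% of all genes tested. On CPM without TMM scaling only *Txk*, 1 of the 9, kept this order.

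**Figure D1:**
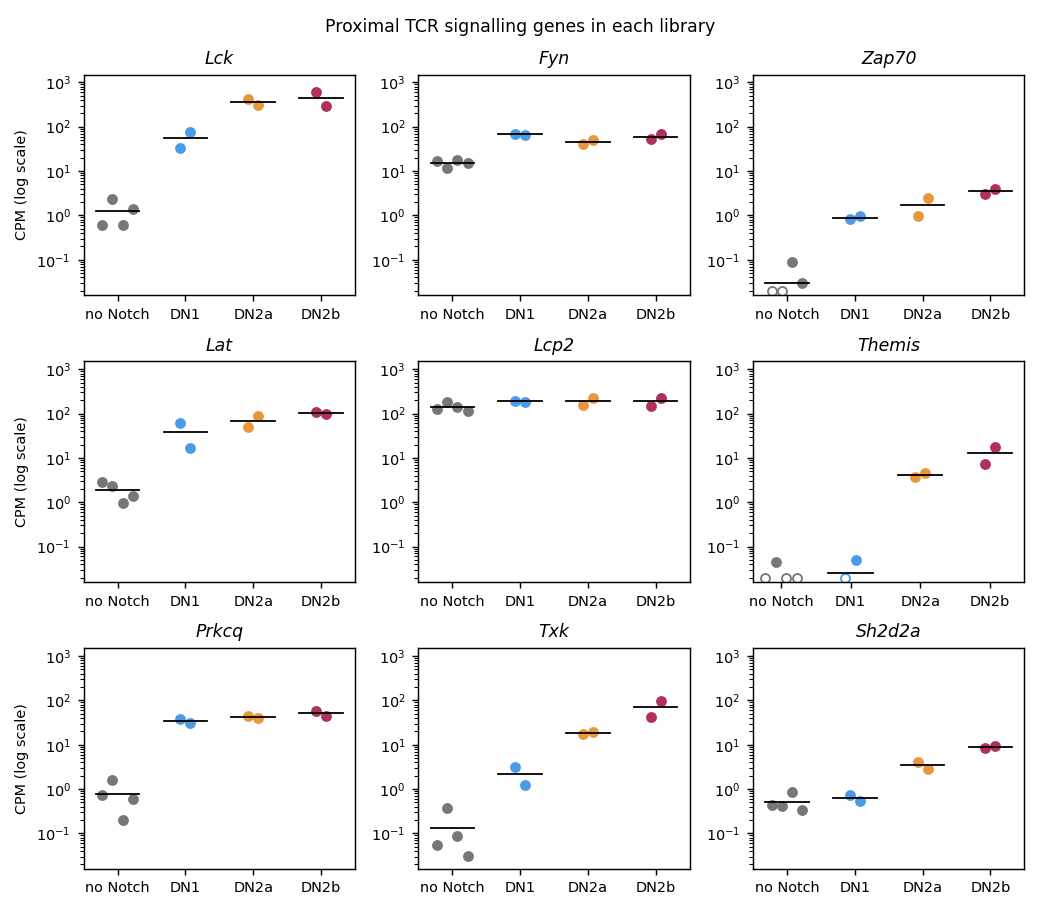
CPM (vertical axis, log scale, library size scaled by TMM) of each of the 9 genes in the 4 no Notch, 2 DN1, 2 DN2a and 2 DN2b libraries. Points are libraries, open points at the bottom have 0 counts and bars are group means. *Lck*, *Prkcq* and *Lat* stand far above the controls already in DN1, *Themis* and *Sh2d2a* only in DN2, and *Lcp2* is between 116 and 227 CPM everywhere.

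Lengths differ between genes, so the order of levels was taken per kilobase of the principal transcript. In DN2b *Lck* led at 206 ± 101 CPM per kb (SD, n = 2), followed by *Lat* at 83.4 ± 4.78 and *Lcp2* at 51.5 ± 15.3. *Txk* (29.9 ± 16.5), *Fyn* (16.8 ± 3.13) and *Prkcq* (14.2 ± 2.33 CPM per kb) came next, and from *Lcp2* to *Prkcq* each gene overlapped its neighbor. *Themis* (2.49 ± 1.48) and *Sh2d2a* (2.02 ± 0.149), which overlapped, and *Zap70* (1.55 ± 0.262 CPM per kb) were lowest. In the controls the order was led by *Lcp2* at 38.7 ± 7.65 and *Fyn* at 4.36 ± 0.766 CPM per kb (SD, n = 4), with *Lck* at 0.567 ± 0.377, where it overlapped *Lat* above it and *Prkcq* below it.

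The first comparison sets DN1 cells against cells grown without Notch ligand. DN1 cells were also sorted and the controls held more neutrophil and monocyte markers, so ligand, sort and cell makeup cannot be told apart. In DN1 over the no Notch control, 6 of the 9 genes passed an adjusted p of 0.05, all higher in DN1, where 14.3% of all genes tested did so (quasi-likelihood test of edgeR, p adjusted by Benjamini-Hochberg over every gene tested). They were *Prkcq* with a log2FC of 5.47 ± 0.56 (SE, adjusted p = 0.000405), *Lck* with 5.46 ± 0.58 (0.000465), *Lat* with 4.40 ± 0.55 (0.000848), *Txk* with 4.04 ± 0.71 (0.00374), *Fyn* with 2.11 ± 0.23 (0.000478), and *Zap70*. *Zap70* was at least 7.25-fold higher in DN1 (adjusted p = 0.00699 in edgeR), a bound computed against the floor of 3 counts in each control library. *Lcp2* (log2FC 0.42 ± 0.27, adjusted p = 0.256 in edgeR) and *Sh2d2a* (0.30 ± 0.53, adjusted p = 0.693 in edgeR) did not pass, and *Themis* was at the floor in both groups. The same 6 genes reached a log2FC of 2, the expression part of the study's criterion for a low-dose gene, as did 7.04% of all genes, and *Fyn* fell to 1.99 without control D2. The study put the *Fyn* promoter on its low-dose list using these libraries, so the *Fyn* value is not independent evidence of that choice. The median log2FC over the 9 genes was 4.04, and 3.45 over the 8 with a fold when *Zap70* was set at its bound, against 0.01 over all genes. Library D2 had the highest control level of *Lck*, *Prkcq* and *Txk*, and all 6 calls remained when it, or any other single library, was left out. Their size moved by over 1.5 times in some of these fits. The log2FC of *Lat* was 3.16 without DN1 replicate 1 and 5.06 without DN1 replicate 2, that of *Lck* 4.75 without DN1 replicate 2, that of *Txk* 3.24 without DN1 replicate 1 and 5.08 without D2, and that of *Prkcq* 6.09 without D2. DN1 replicate 1 carried myeloid markers at 2015 CPM, between the controls and the other DN libraries.

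In DN2a over the control and in DN2b over the control, 8 of the 9 genes passed, all higher, against 21.2% and 19.9% of all genes. In DN2b the log2FC was 9.04 ± 0.75 for *Txk* (adjusted p = 6.78e-05 in edgeR), 8.50 ± 0.64 for *Lck*, 6.04 ± 0.57 for *Prkcq*, 5.78 ± 0.57 for *Lat*, 4.10 ± 0.51 for *Sh2d2a* (adjusted p = 0.000495 in edgeR) and 1.94 ± 0.23 for *Fyn*. Against the floor of the controls, DN2b held at least 104-fold more *Themis* and at least 28.7-fold more *Zap70*. In DN2a the bounds were 34.4-fold for *Themis* and 14.4-fold for *Zap70*, and the log2FC was 8.20 ± 0.63 for *Lck*, 7.13 ± 0.72 for *Txk*, 2.72 ± 0.50 for *Sh2d2a* and 1.56 ± 0.23 for *Fyn*. *Lcp2* was the exception in both, at 0.42 ± 0.27 in DN2a (adjusted p = 0.218 in edgeR) and 0.41 ± 0.27 in DN2b (adjusted p = 0.233 in edgeR). The median over the 9 genes was 5.42 in DN2a and 6.04 in DN2b, or 5.10 and 5.78 with *Themis* and *Zap70* at their bounds, against -0.05 over all genes in each. Without D2 the log2FC was 10.1 for *Txk* and 6.67 for *Prkcq* in DN2b, and 8.18 and 6.40 in DN2a. Without DN2b replicate 2 that of *Txk* was 8.32 in DN2b and the bound for *Themis* 60.4-fold, and without DN2b replicate 1 the log2FC of *Lck* was 7.89. The *Zap70* bound in DN2a was 7.96-fold without DN2a replicate 2. The 3 comparisons share the 4 control libraries, so they are not independent of each other. DN2 cells were also sorted, came from cultures with IL-7 and held fewer neutrophil and monocyte markers than the controls. The controls were taken at day 14, the day on which those Delta1 cultures received IL-7. Ligand, IL-7, sort, time and cell makeup cannot be told apart here.

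**Figure D2:**
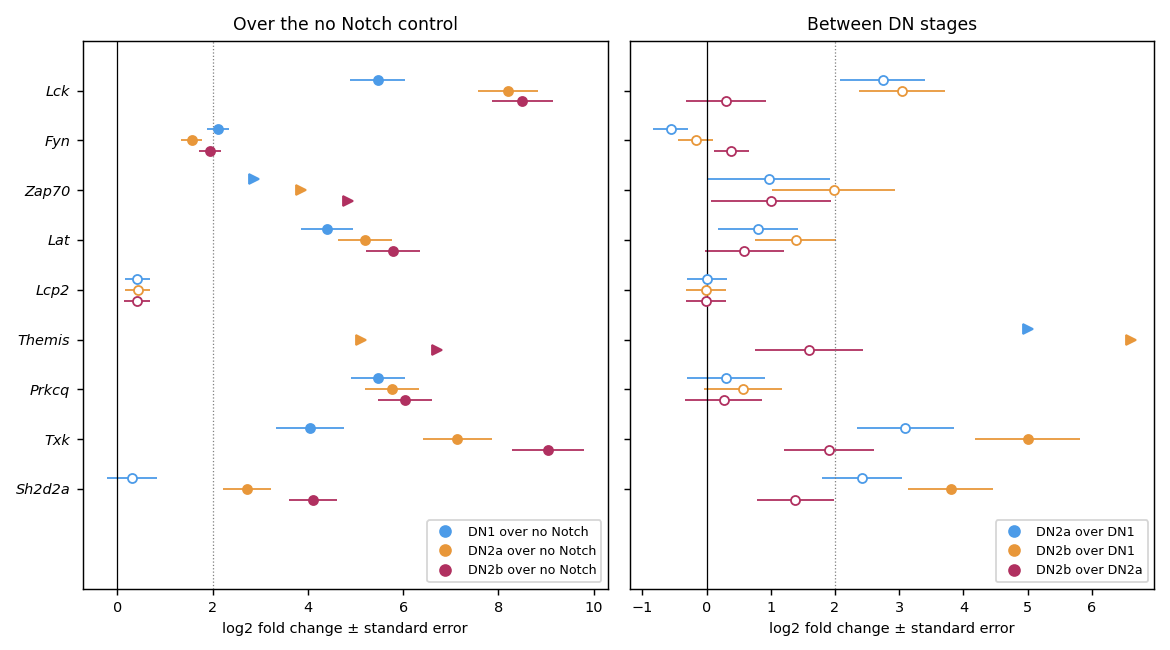
Log2FC with its standard error (horizontal axis) of each of the 9 genes over the no Notch control (left) and between DN stages (right), from 1 edgeR fit. Filled symbols passed an adjusted p of 0.05, triangles are lower bounds against the detection floor with no standard error, the dotted line marks a log2FC of 2, and *Themis* in DN1 over no Notch is left out because both groups are at the floor. *Lcp2* has open symbols near 0 throughout, and on the right only *Themis*, *Txk* and *Sh2d2a* have filled symbols.

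The second set of comparisons follows the genes through the DN stages, which the study used to separate high-dose from low-dose Notch targets. In DN2b over DN1, 3 of the 9 genes passed, all higher in DN2b, against 1.01% of all genes. *Txk* had a log2FC of 5.00 ± 0.82 (adjusted p = 0.0205 in edgeR) and *Sh2d2a* of 3.80 ± 0.66 (adjusted p = 0.0258 in edgeR). *Themis* was at least 97.1-fold higher (adjusted p = 0.0128 in edgeR). *Lck* had a log2FC of 3.04 ± 0.67 and did not pass, with an adjusted p of 0.0621 in edgeR. *Zap70* (1.98 ± 0.96), *Lat* (1.39 ± 0.63), *Prkcq* (0.57 ± 0.60), *Fyn* (-0.17 ± 0.27) and *Lcp2* (-0.01 ± 0.31) did not pass either. The median log2FC was 1.98 against -0.02 over all genes. *Lck*, *Themis*, *Txk* and *Sh2d2a* reached a log2FC of 2 in DN2b over both DN1 and the control, the study's expression criterion for a high-dose gene, which 2.25% of all genes met. *Sh2d2a* is on the study's high-dose list, made with these libraries, and its call here is not independent of that list.

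With 2 libraries a stage these calls rest on single libraries. All 3 ended when only DN1 and DN2b were fitted, with adjusted p in edgeR of 0.0544 for *Themis* and *Txk* and 0.0872 for *Sh2d2a*. The bound for *Themis* was 56.3-fold without DN2b replicate 2. *Sh2d2a* lost its call when any 1 of the 6 DN libraries was left out, with adjusted p between 0.0513 and 0.129 in those edgeR fits. *Txk* lost it without either DN1 library (adjusted p = 0.0748 without replicate 1 and 0.0555 without replicate 2 in edgeR) and without DN2b replicate 2 (0.104). *Themis* lost it without DN1 replicate 1 (adjusted p = 0.0728 in edgeR) and without DN2b replicate 2 (0.0519). *Lck* gained a call without control D2 (adjusted p = 0.0342 in edgeR), without a filter on low counts (0.031) and with DESeq2 (adjusted p = 0.000152). The log2FC over these leave-outs stayed between 4.29 and 5.81 for *Txk*, 3.61 and 4.04 for *Sh2d2a*, and 2.43 and 3.76 for *Lck*. Within a year, DN2b exceeded DN1 on the log2(CPM + 1) scale by 3.42 (replicates 1) and 5.45 (replicates 2) for *Txk*, 2.46 and 2.77 for *Sh2d2a*, 3.06 and 4.18 for *Themis*, and 4.15 and 1.93 for *Lck*.

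In DN2a over DN1, 1 of the 9 genes passed, against 0.196% of all genes higher. It was *Themis*, at least 32.1-fold higher in DN2a with an adjusted p of 0.0499 in edgeR, and the call was lost in 9 of 10 fits that left out 1 library (adjusted p up to 0.269), remaining only without DN1 replicate 2 (0.0409). With the year as a replicate block the adjusted p for *Themis* was 0.0575 in edgeR, and 0.0611 in the same 6 libraries without the block. *Txk* (log2FC 3.10 ± 0.75), *Lck* (2.74 ± 0.67) and *Sh2d2a* (2.42 ± 0.63) had groups that did not overlap and adjusted p of 0.157, 0.157 and 0.182 in edgeR. DESeq2 called all 3, with adjusted p of 0.00227, 0.00168 and 0.0142. Groups of the first 2 libraries above the second 2 without overlap were common in this comparison, at 20.9% of all genes. *Lat* differed by year: DN2a over DN1 was -0.28 on the log2(CPM + 1) scale between replicates 1 and 2.30 between replicates 2. *Fyn* was the only one of the 9 genes lower in both DN2a libraries than in both DN1 libraries (log2FC -0.56 ± 0.27, adjusted p = 0.509 in edgeR).

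Between DN2b and DN2a, stages whose libraries share their dates in the labels, no gene of the 12221 passed in edgeR, at 0% of all genes, and 335 had an unadjusted p under 0.05, among them 2 of the 9. DESeq2 called 29 genes. The largest log2FC among the 9 were 1.91 ± 0.71 for *Txk*, 1.60 ± 0.84 for *Themis* and 1.38 ± 0.59 for *Sh2d2a*. For *Lck* the difference on the log2(CPM + 1) scale was 0.50 between replicates 1 and -0.05 between replicates 2.

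The 32 other genes of the pathway, of which 31 were tested, were mixed in direction. In DN1 over the control, 10 were higher and 6 lower, in DN2a 14 and 5, and in DN2b 12 and 6, against 14.3%, 21.2% and 19.9% of all genes higher and 17.0%, 24.3% and 22.5% lower. Leaving out 1 library at a time moved the 6 lower in DN1 to between 1 (without DN1 replicate 1) and 8 (without control D2), with 3 or fewer without DN1 replicate 2, either DN2a library or control D1, R1 or R2. The 5 lower in DN2a became 2 and 3 without DN2a replicate 1 and 2, and the 6 lower in DN2b became 3 without either DN2b library. In DN2b over DN1, 10 were higher and 1 lower, against 1.01% and 0.892% of all genes, and the 10 became 3 without DN1 replicate 1, 5 without DN2b replicate 2 and 6 with only the groups compared. The median log2FC of the 31 in DN2b over the control was 0.37, where that of the 9 genes was 6.04.

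The receptor chains carry the tails that LCK phosphorylates. All 4 of them, *Cd3d*, *Cd3e*, *Cd3g* and *Cd247*, passed in DN2b over DN1, with log2FC of 6.80, 5.98, 4.68 and 6.48, against 1.01% of all genes higher. With only the groups compared, *Cd3d* (adjusted p = 0.0917 in edgeR) and *Cd3g* (0.0547) did not pass. *Cd3e* and *Cd247* passed in every fit that left out 1 library and with the year as a replicate block, *Cd3g* missed with the block (adjusted p = 0.0502 in edgeR), and *Cd3d* was lost in 5 of 10 leave-outs (without DN1 replicate 1 or any DN2 library). The log2FC of *Cd3d* was 9.32 and that of *Cd3g* 5.74 without DN1 replicate 2, against 5.91 and 4.08 without DN1 replicate 1. *Cd3e* had 0 counts in every control, and DN2b exceeded their floor at least 849-fold. The study's high-dose list, made with these libraries, holds *Cd3e*. *Cd3g* stood at 30.4 and 95.9 CPM in DN1, and *Cd247*, the zeta chain that ZAP70 docks on, at 0.704 and 0.548 CPM, so the chains were not at like levels in DN1.

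*Plcg1*, the phospholipase that Tec kinases act on, exceeded the control in DN2b (log2FC 3.45 ± 0.26) and already did so in DN1 (2.78 ± 0.26). Like *Prkcq*, it did not pass between DN1 and DN2b. The kinase *Tec* was lower in DN1 than in the control (-1.48 ± 0.42, adjusted p = 0.0251 in edgeR), a call lost without either DN1 library or control R1 (adjusted p up to 0.133).

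Among the 10 adaptors tested, 5 were higher and 1 lower in DN2b than in the control, where 19.9% of all genes were higher and 22.5% lower. *Trat1*, a transmembrane adaptor of the receptor, was at least 809-fold higher and *Skap1*, which links to integrin adhesion, at least 114-fold, and *Grap2*, the adaptor that joins LAT to SLP-76, had a log2FC of 5.01 ± 0.33. *Nck2*, which ties the receptor to actin and stands on the study's high-dose list, passed in DN2b over DN1 (2.65 ± 0.43) together with *Grap2* (2.1 ± 0.38), *Trat1* (3.76 ± 0.51) and *Skap1* (5.16 ± 0.65). None of these 4 calls remained without DN1 replicate 1, and *Skap1* was the only one that kept its call without each other library. *Trat1* also lost it without DN2b replicate 2, *Nck2* without DN1 replicate 2 or either DN2b library, and *Grap2* without any DN2 library. *Lax1*, a membrane adaptor that dampens signaling, was high from DN1 on (4.75 ± 0.71 over the control, 4.13 without DN1 replicate 2 and 5.58 without control D2) and had a log2FC of -0.32 ± 0.79 in DN2b over DN1.

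Of 12 genes listed as inhibitors and phosphatases, which include *Ptprc* (CD45), a phosphatase that also activates LCK, and leave out *Lax1*, listed as an adaptor, 1 exceeded the control in DN2b, 4 were lower and 7 did not pass, with a median log2FC of -0.44, against 19.9% of all genes higher and 22.5% lower. *Sla2*, a Src-like adaptor that dampens receptor levels, was the higher one (7.37 ± 0.43). It was also higher in DN2b than in DN1 (3.51, adjusted p = 0.00962 in edgeR, or 0.00972 with the year as a replicate block). That call did not hold without DN1 replicate 1. *Ubash3b* (-3.57 ± 0.54, or -4.36 without DN2b replicate 2), a phosphatase that acts on ZAP70 and SYK, *Ptpn6* (-2.01 ± 0.29), which codes for SHP-1, and *Dok1* (-1.91 ± 0.32) were lower. *Ubash3b* was also lower in DN2b than in DN1 (-2.92 ± 0.55, adjusted p = 0.034 in edgeR), a call lost in 7 of 10 leave-outs (without DN1 replicate 1, any DN2 library or control R1 or R2) and with the year as a replicate block (0.118), with a log2FC of -2.20 without DN1 replicate 1 and -3.72 without DN2b replicate 2. Downstream of the adaptors, *Rasgrp1*, the RAS exchange factor of T cells, rose between DN1 and DN2b (6.27 ± 0.94, adjusted p = 0.0151 in edgeR), a call lost without DN1 replicate 1 or DN2b replicate 2. *Bcl10* and *Malt1*, which act together downstream of protein kinase C theta, had log2FC of 0.07 ± 0.34 and -0.27 ± 0.30 in the same comparison, and neither passed.

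**Figure D3:**
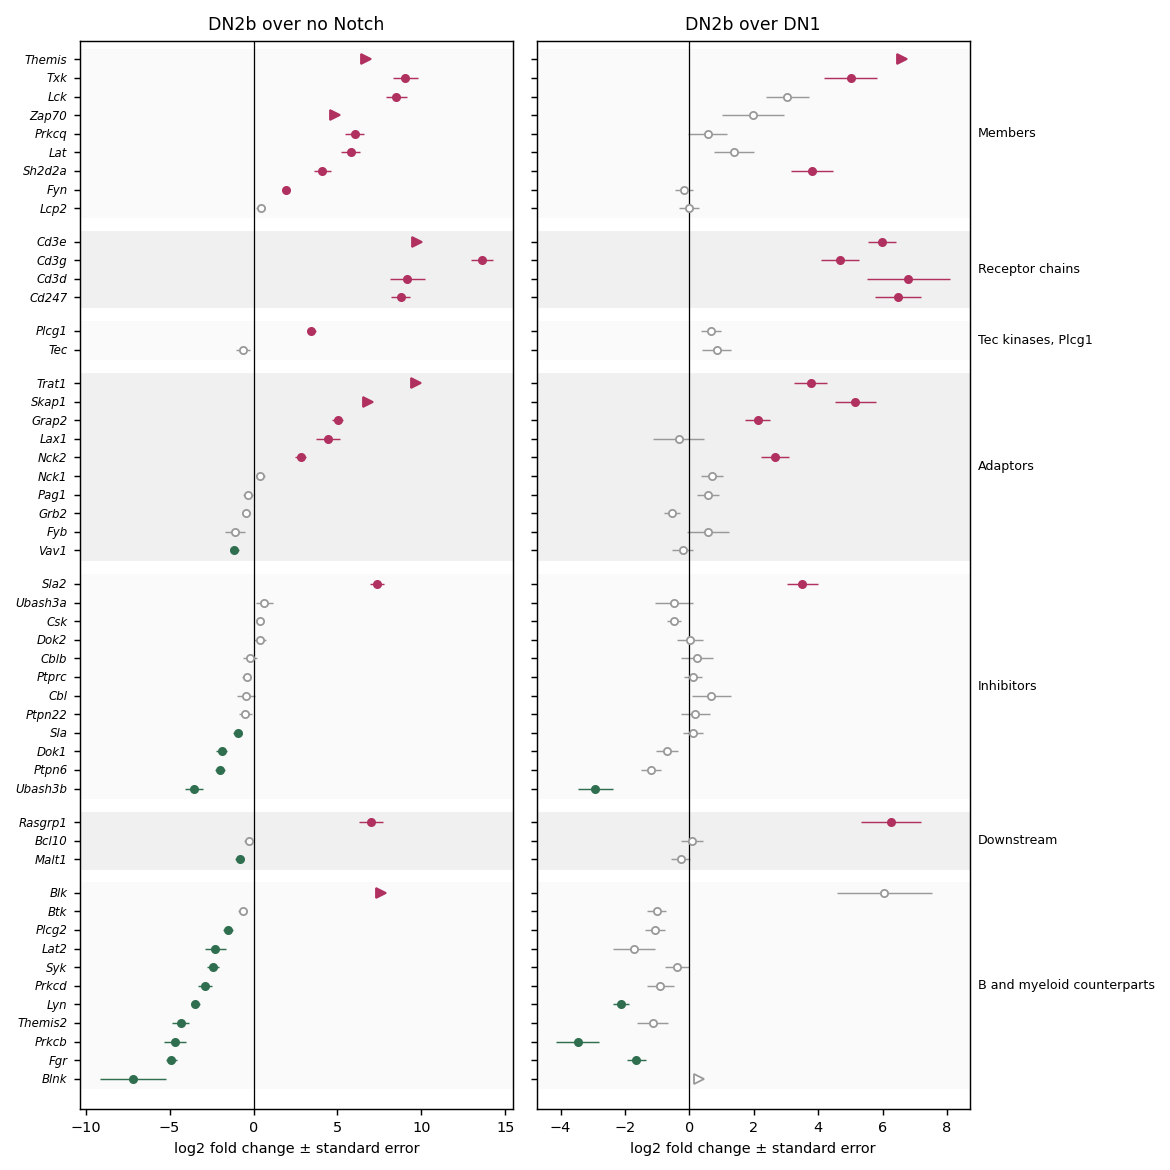
Log2FC with its standard error (horizontal axes) in DN2b over no Notch (left) and DN2b over DN1 (right) for the 9 genes, the tested genes of the rest of the pathway and the counterparts in B and myeloid cells. Red is higher and green lower at an adjusted p of 0.05, open grey symbols did not pass, and triangles are bounds against the detection floor. All 4 receptor chains are red in both panels, while 9 of 11 counterparts are lower in DN2b than in the control.

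Several of the 9 genes have relatives that do the same step in B and myeloid cells, and these were compared as pairs within each library. Of 11 such counterparts, 6 were lower in DN1, 7 in DN2a and 9 in DN2b than in the control, against 17.0%, 24.3% and 22.5% of all genes lower. Their median log2FC in DN2b was -2.90. *Fgr* (-4.91 ± 0.33) and *Lyn* (-3.47 ± 0.25), Src family kinases of myeloid cells, were among them, and both, with *Prkcb*, a protein kinase C of B and myeloid cells, were also lower in DN2b than in DN1, as 0.892% of all genes were. With the year as a replicate block *Lyn* was the 1 of these that passed (adjusted p = 0.0298 in edgeR, against 0.0869 for *Fgr* and 0.120 for *Prkcb*). With only the groups compared none of them passed (adjusted p in edgeR of 0.0547 for *Lyn*, 0.266 for *Fgr* and 0.184 for *Prkcb*). *Lyn* lost its call without DN2b replicate 2 (0.0519 in edgeR). *Fgr* and *Prkcb* each lost it in 7 of 10 leave-outs, among them those without DN1 replicate 1 and without each DN2 library. *Blnk*, the B cell relative of *Lcp2*, was at 74.8 CPM in control D1 and at 3.20 to 9.10 CPM in the others. It passed the filter only through the controls, which partly set its place among the lower counterparts. *Blnk* was at least 174-fold lower in DN1, or at least 40.9-fold without D1. Its call there was lost without either DN1 library (adjusted p up to 0.0780 in edgeR). The neutrophil and monocyte markers were lower in the same libraries. Of the mast cell and basophil markers, *Fcer1a* was at 268 and 62.0 CPM in DN1 and at 0.200 and 0.0796 CPM in DN2b. *Ms4a2* was at 123 and 41.4 CPM in DN1 and at 0 and 0.239 CPM in DN2b. *Cpa3*, of the same list, overlapped between these stages. It was at 681 and 230 CPM per kb in DN1, 177 and 313 in DN2b and 5.91 to 47.8 in the controls. The part of these cells in the differences was not tested. *Blk*, a Src family kinase known from B cells, was the 1 counterpart that was higher. It had 0 counts in all 4 controls and 7.54 and 40.1 CPM in DN2b, at least 196-fold higher than the control, or 62.1-fold without DN2b replicate 2. In DN2b over DN1 *Blk* did not pass (log2FC 6.05 ± 1.47, adjusted p = 0.130 in edgeR), but it did with the year as a replicate block (0.0298) and in DESeq2 (0.000205). Of 5 B cell markers, *Pax5*, *Ms4a1* and *Cd79a* were at 0.336 CPM or less in every library and *Cd79b* was at 5.75 to 19.6 CPM. *Ebf1* was at 4.46 CPM in DN2b replicate 2, the library with the most *Blk*, and at 0.199 CPM or less in the others, and the part of B lineage cells in the *Blk* level was not tested.

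Per kilobase, *Lck* was below *Lyn* in 4 of 4 controls, above it in 1 of 2 DN1 libraries, and above it in all 4 DN2 libraries. *Lat* was below *Lat2* in the controls and in both DN1 libraries and above it in all 4 DN2 libraries, by 1.91- to 7.34-fold. The kinase pair did not cross: *Syk* was above *Zap70* in all 10 libraries, and by 8.09- and 4.02-fold in DN2b. *Syk* itself was lower in DN2b than in the control (-2.40 ± 0.37). *Themis2* was above *Themis* in every library but DN2b replicate 2. *Prkcq* was above *Prkcd* in both DN2b libraries and 1 of 2 DN2a libraries, and above *Prkcb* in all 4 DN2 libraries, 1 of 2 DN1 libraries and no control. *Fyn* was above *Lyn* in both DN2b libraries and in no other, and *Lck* was above *Fgr* in all 6 DN libraries and in no control. These orders were the same with the length of all exons merged. The orders of *Txk* and *Btk*, *Plcg1* and *Plcg2*, and *Lcp2* and *Blnk* changed in 1 library each with that length.

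**Figure D4:**
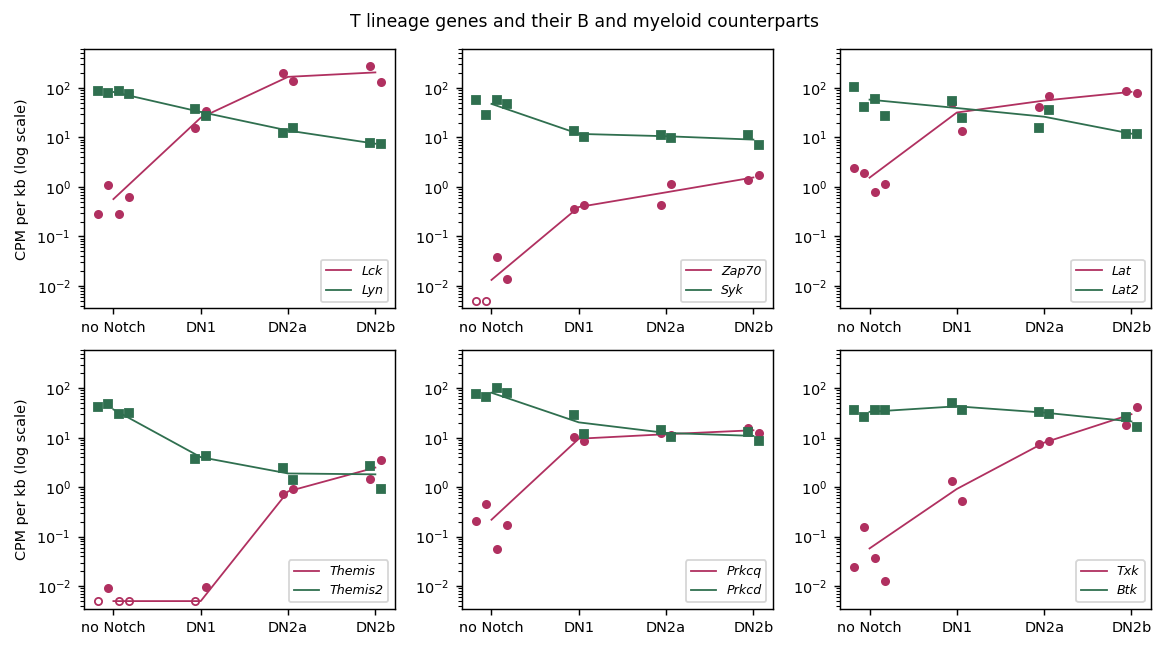
Level per kilobase of the principal transcript (vertical axis, CPM per kb, log scale) for 6 pairs of a T lineage gene (circles) and its counterpart in B and myeloid cells (squares) in the 10 libraries. Lines join group means and open symbols at the bottom have 0 counts. *Lck* and *Lat* lie above their counterparts in every DN2 library. The mean lines of *Themis*, *Prkcq* and *Txk* cross theirs only in DN2b, while *Syk* stays above *Zap70* in all 10 libraries.

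The genes whose pattern over the 10 libraries was most like the mean of the 9, each of the 9 standardized on the log2(CPM + 1) scale, were *Colq* (Pearson r = 0.993), *Gimap6* (0.989), *Mpg* (0.988), *Gimap1* (0.988) and *Tnfrsf18* (0.986). These are descriptions, since the points fall into 4 groups and libraries of a group share their culture. Among the 9, *Lcp2* was least like the rest, with r of at most 0.657 with any other of them, while *Themis* and *Sh2d2a* reached 0.973 with each other.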

How the data were processed

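RNA-seq counts of 10 libraries were used, grouped by the labels. The authors removed failed reads, aligned 36 bases of read 1 to mm10 with TopHat2 2.12, counted reads per gene with HTSeq 0.6.1p1 (intersection-strict) and deposited raw counts per gene symbol. The library kit is stranded, while the annotation and the strand setting are not given in the sources used here. The 5 summary lines of each file, which made up 20.5% to 41.0% of its total and are mostly reads with several alignments, were dropped. Genes with near-identical copies have uncertain values for that reason.

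The filter rule of the study's methods (1 CPM or more in 2 or more libraries) was applied to the deposited gene rows, and the genes it kept here need not be those the study kept. All 10 libraries were fitted as 4 groups with edgeR 4.0.16 (quasi-likelihood test, TMM, prior count 0.125) in R 4.3.3, with a common dispersion of 0.189 and Benjamini-Hochberg adjustment over 12221 genes. Standard errors were computed as |log2FC| over the root of the F statistic. CPM uses TMM-scaled library sizes over gene rows. Replicates of a stage came from independent LSK isolates, and per the methods DN1, DN2a and DN2b cells were sorted from each isolate, so stages share isolates. Which libraries share one is not stated in the sources used here, and the year in the labels was used. Intervals were not computed, and floors cover counting error only.

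The 9 genes, the pathway lists and the tests were chosen with earlier results of these data known. Named pathway genes are up to 4 of a list by absolute log2FC in DN2b over the control, and any called in DN2b over DN1. Some genes of these lists are not reported here and were left out of the counts over them. Alternatives were DESeq2 1.42.0, library-size scaling, no filter or filterByExpr, a prior count of 2, only the groups compared, only controls D1 and D2, or only R1 and R2, the 6 DN libraries with and without the year as a block, plain CPM and each library left out. DN2a and DN2b of a year share a date in the labels, and DN1 shares only the year. Deviations of same-year libraries from their stage means correlated at r = 0.452 (DN2a and DN2b), 0.189 (DN1 and DN2b) and 0.063 (DN1 and DN2a). Promoter sequences are from RefSeq on GRCm38.p6, and gene positions and transcript lengths from GENCODE vM21. Python 3.11.15 with pandas 2.3.3 and matplotlib 3.10.9 was used for summaries.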

Additional observations from a re-analysis of the deposited data

Results flagged for a closer look

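In the 4 control libraries, 6 genes from lists of 52 had 1 library far from the other 3 (Dixon's test of the gap over the range). Chance gives about 1 in 20 of the genes tested. Genes with a mean of 3 or fewer counts per control library were left out, so fewer than 52 were tested. They were *Txk* at 0.369 CPM in D2 (the others at 0.0305 to 0.0880), *Ptpn22* at 72.2 CPM in D2, *Btk* at 65.5 CPM in D2, below the others, *Cd3d* at 1.99 CPM and *Cd247* at 0.293 CPM in R1, and *Blnk* at 74.8 CPM in D1. The calls of the 9 genes over the control remained without each of these libraries.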

How the results depend on the processing

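The calls of the 9 genes over the control were the same in every alternative that tested them, but with only the groups compared *Zap70* fell under the filter in DN1 and in DN2a over the control and was not tested, as were *Themis* and *Sh2d2a* in DN1. In the 6 DN libraries fitted with year as a block (the paired fit), 233 genes were called in DN2b over DN1 (187 without the block), 58 in DN2a over DN1 (32 without), and of the 9 genes 3 and 0 (0 without the block as well). Against the fit of all 10 libraries, the block changed no call of the 9 genes but that of *Themis* in DN2a over DN1, which the 6 libraries without it lost too. DN2a over DN1 gave 474 genes and 4 of the 9 with DESeq2, 101 genes without a filter, and 25 genes with only the groups compared, where 0 of the 9 passed, as with library-size scaling. DN2b over DN1 gave 822 genes and 4 of the 9 with DESeq2 and 80 with only the groups compared, where 0 of the 9 passed. DN2b over DN2a gave 29 genes with DESeq2 and 1 without a filter. With controls D1 and D2 alone, 2329 genes were called in DN1 and 3264 in DN2b over the control. Leaving out 1 library at a time gave 1867 to 4163 genes in DN1, 2686 to 6016 in DN2a and 2683 to 5674 in DN2b over the control, 0 to 229 in DN2a over DN1 (0 to 1 of the 9), 51 to 383 in DN2b over DN1 (0 to 4 of the 9) and 0 to 1 in DN2b over DN2a. The causes were not tested. Library-size scaling shifted the median of all genes by 0.26 in DN1 over the control, with 2585 genes higher and 1627 lower against 1753 and 2081, by -0.20 in DN2a over DN1 and by -0.19 in DN2b over DN1. Signs near 0 turned. For *Lcp2* the log2FC in DN2a over DN1 was -0.20 with library-size scaling, -0.010 with only the groups compared, -0.058 with the block, -0.015 in the 6 DN libraries without it and -0.31 to 0.27 over the leave-outs. In DN2b over DN2a it was 0.018 with DESeq2, 0.0084 with library-size scaling, 0.022 with only the groups compared, 0.0016 in the 6 DN libraries and -0.35 to 0.30 over the leave-outs. In DN2b over DN1 it was 0.019 with DESeq2, 0.0059 with only the groups compared and -0.35 to 0.27 over the leave-outs. *Themis* in DN1 over the control, at the floor in both, was -0.16 with D1 and D2 alone and -1.45 to 2.29 over the leave-outs. Leave-outs gave -0.38 to 0.0075 for *Fyn* in DN2b over DN1 and -0.32 to 0.73 for *Lck* in DN2b over DN2a. The limits are those of 2 libraries a stage.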
